A study of Mus musculus with 22 samples.

Results

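The promoters and mRNAs of 9 genes of the germ line were followed, out of the 22342 protein-coding genes annotated on the mouse autosomes and chromosome X and of the 37991 genes counted by RNA-seq. They were taken as a named list: Dazl, Ddx4, Sycp1, Mael, Slc25a31, Hormad1, Stk31, Tdrd1 and Tex101. For each gene, CpG methylation was read within 1 kb of the transcription start site in 12 whole genome bisulphite sequencing (WGBS) libraries, and mRNA was read as counts in 6 RNA-seq libraries of E14.5 liver. All 9 promoters passed the coverage filter and were among the 18905 promoters tested for methylation. Only Sycp1 passed the filter on low counts in the RNA-seq.

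The study asked what the loss of Rlf, a zinc finger protein found in a screen for modifiers of epigenetic state, does to the methylome. Wild-type embryos were compared with homozygous MommeD28/MommeD28 mutants, which carry an ENU-induced null allele of Rlf. Both genotypes were FVB inbred mice of 1 colony (Line3 FVB/NJ in the study's methods), both were homozygous for a multi-copy GFP transgene array driven by the human alpha-globin promoter and HS-40 enhancer, and both came from matings of heterozygotes. WGBS covered 3 tissues with 2 wild-type and 2 mutant libraries each: whole E10.5 embryos (all male), E14.5 livers (littermates, replicate 1 male and replicate 2 female in each genotype) and E18.5 livers (all female). RNA-seq covered 3 wild-type and 3 mutant E14.5 livers, of which replicate 3 was female in each genotype. Tissue and stage changed together between E10.5 and E14.5 and cannot be told apart there, while the E14.5 and E18.5 libraries were both of liver. The paper gives erythroblasts as the main cell type of E14.5 liver and hepatoblasts as that of E18.5 liver. Stage and cell make-up therefore changed together between the livers and cannot be told apart either. The E14.5 males could be set beside the E10.5 males and the E14.5 females beside the E18.5 females. A whole liver or embryo holds many cell types, so a methylation level is an average over them, and fewer cells of a type and less RNA per cell cannot be told apart in the counts.

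Germline genes of this kind are expressed in primordial germ cells or in meiotic cells and are silent in most somatic tissues. Many have a CpG-rich promoter that, unlike most CpG islands, acquires DNA methylation around implantation and keeps it in the soma. The repressor complex PRC1.6, with the E-box binding partners Mga and Max and the E2F family member E2f6, is known to sit at many of these promoters. Dazl and Ddx4 encode an RNA-binding protein and an RNA helicase of germ cells. Sycp1 and Hormad1 encode proteins of the meiotic chromosome axis and synaptonemal complex. Mael, Tdrd1 and Stk31 encode a piRNA pathway protein and Tudor domain proteins, Slc25a31 an ADP/ATP carrier of sperm, and Tex101 a surface protein of germ cells.

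The sequences that the promoters share are shown first. The E-box CACGTG (a palindrome, so that both strands are searched together) was found between 250 bases before and 49 bases after the start site in 7 of the 9 genes, against 7.75% of all 22342 promoters. Hormad1 held 2 of these sites. Dazl and Tex101 held none in this window. Each line below gives 30 bases of the C57BL/6J reference (NCBIM37, the mm9 build) on the strand of the gene, with the E-box in capitals, because the CpG at the centre of the E-box was measured in every library.
Ddx4, E-box at -29 from the start, chr13:113442530-113442559, minus strand: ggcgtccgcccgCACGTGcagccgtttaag
Sycp1, at -94, chr3:102740100-102740129, minus strand: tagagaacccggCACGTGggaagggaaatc
Mael, at -223, chr1:168169081-168169110, minus strand: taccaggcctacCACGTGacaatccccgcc
Slc25a31, at -77, chr3:40512688-40512717, plus strand: cgcaactggaaaCACGTGttatggtcacat
Hormad1, at -58, chr3:95363530-95363559, plus strand: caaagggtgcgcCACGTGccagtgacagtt
Hormad1, at -21, chr3:95363567-95363596, plus strand: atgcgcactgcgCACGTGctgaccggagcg
Stk31, at -120, chr6:49345471-49345500, plus strand: aggccggccaccCACGTGaccagggctgcg
Tdrd1, at -11, chr19:56900676-56900705, plus strand: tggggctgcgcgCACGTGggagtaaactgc

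The E-box CpGs were less methylated than their neighbours. With the reads of the 12 libraries pooled, the E-box CpG of Tdrd1 was methylated at 27.9%, and the median of the other 19 CpGs measured in the same 300 bases was 53.7%. In Stk31 the E-box CpG stood at 53.2% and the other CpGs at a median of 85.1%. The E-box CpG of Slc25a31 stood at 54.6% beside 84.6%, and no other CpG of these 300 bases was lower in Stk31 or Slc25a31. All 8 sites lay below the median of their neighbours, the smallest gap being that of the Hormad1 site at -21, at 69.8% beside 90.4%. The Sycp1 site was the least well covered, with 5 to 31 reads a library.

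This was not particular to the 9 genes. Among the other methylated comparison promoters (above 50%, defined below), 34 of 35 E-box CpGs, in 22 promoters, lay under the median of their neighbours, with a median gap of -21.4 points, and for the 7 sites of the 9 genes with at least 6 reads in every library the median gap was -29.98 points. The sequence TCCCGC, the core of the E2F site, was searched on both strands and was found in 5 of the 9 genes and in 25.3% of all promoters. No TCCCGC match overlapped an E-box. Among the sites with at least 6 reads in every library, its CpG lay under the median of its neighbours at 3 of 5 sites in the 9 genes and at 19 of 36 in the other promoters. A sixth site, in Mael, had as few as 4 reads in a library and stood at 71.3% beside 79.6%. Sites of 1 promoter share its CpGs, and these counts are given as a description with no test.

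**Figure D1:**
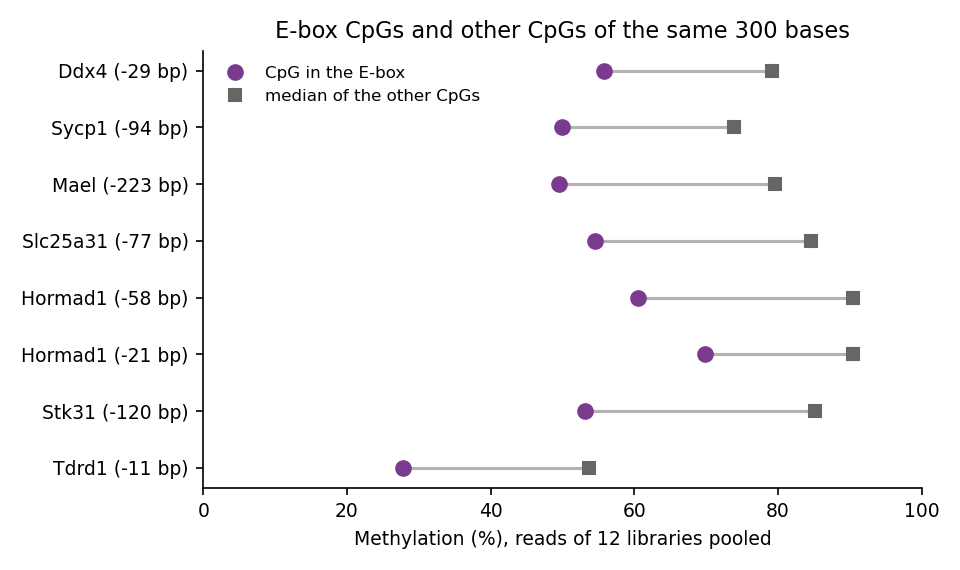
Methylation of the CpG inside each E-box (circle) and the median of the other CpGs of the same 300 bases (square), in percent of reads pooled over 12 libraries, for the 8 E-boxes of 7 genes. Each circle lies to the left of its square, and the Tdrd1 circle, at 27.9%, is the lowest.

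The 9 promoters were highly methylated and ranged widely in CpG number. Within 1 kb of the start they held 43 (Tex101) to 134 (Dazl) CpGs that passed the coverage minimum of 6 reads in each library, covered on average 16.9 to 59.5 times in a library. Of the 12073 promoters with at least 43 such CpGs, 257 (2.13%) had a mean methylation above 50% over the 12 libraries, and all 9 genes were among them, while the median of the 12073 was 2.59%. Since the genes were named for their methylated promoters, this level is a description. The 257, the 9 included, are called the methylated comparison promoters below. The minimum of 43 CpGs is the count of Tex101, the member with fewest, and 63.9% of the 18905 promoters tested met it. By CpG number Dazl stood at percentile 91.5 of the promoters tested and Sycp1, Ddx4 and Slc25a31 above the median, while Tdrd1, Stk31, Mael, Hormad1 and Tex101 stood under it, at percentiles 48.2 to 36.1. Each value of a promoter in a library rests on 1067 to 6548 reads, and its 95% Wilson interval extends 1.19 to 2.44 points to either side. These intervals cover counting error only and treat neighbouring CpGs as independent.

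In the GENCODE vM1 annotation on mm9, the genes on the plus strand were Slc25a31 (ENSMUSG00000069041, chr3:40512777-40529515), Hormad1 (ENSMUSG00000028109, chr3:95363599-95391593), Stk31 (ENSMUSG00000023403, chr6:49345603-49419500) and Tdrd1 (ENSMUSG00000025081, chr19:56900699-56944502). Those on the minus strand were Dazl (ENSMUSG00000010592, chr17:50418719-50432924), Ddx4 (ENSMUSG00000021758, chr13:113388541-113442518), Sycp1 (ENSMUSG00000027855, chr3:102622422-102740023), Mael (ENSMUSG00000040629, chr1:168131516-168168875) and Tex101 (ENSMUSG00000062773, chr7:25453031-25457069). Each window held the upstream promoter and the first kb of the gene, and none held another annotated gene. The windows had a GC content of 47.5% to 60.7% and an observed over expected CpG ratio of 0.349 (Tex101) to 0.768 (Dazl).

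Mean levels over the 12 libraries ran from 54.9% for Dazl and 61.4% for Tdrd1, through 74.5% for Sycp1, 75.7% for Mael, 77.9% for Ddx4 and 78.4% for Tex101, to 82.0% for Slc25a31, 84.6% for Stk31 and 85.5% for Hormad1. Hormad1 was the steadiest, from 80.8% to 90.1%. Tdrd1 was the most variable, from 37.0% in an E14.5 wild-type liver to 76.1% in an E10.5 mutant embryo. All neighbours in this order overlapped in their ranges over libraries, at its ends as well as in its middle.

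**Figure D2:**
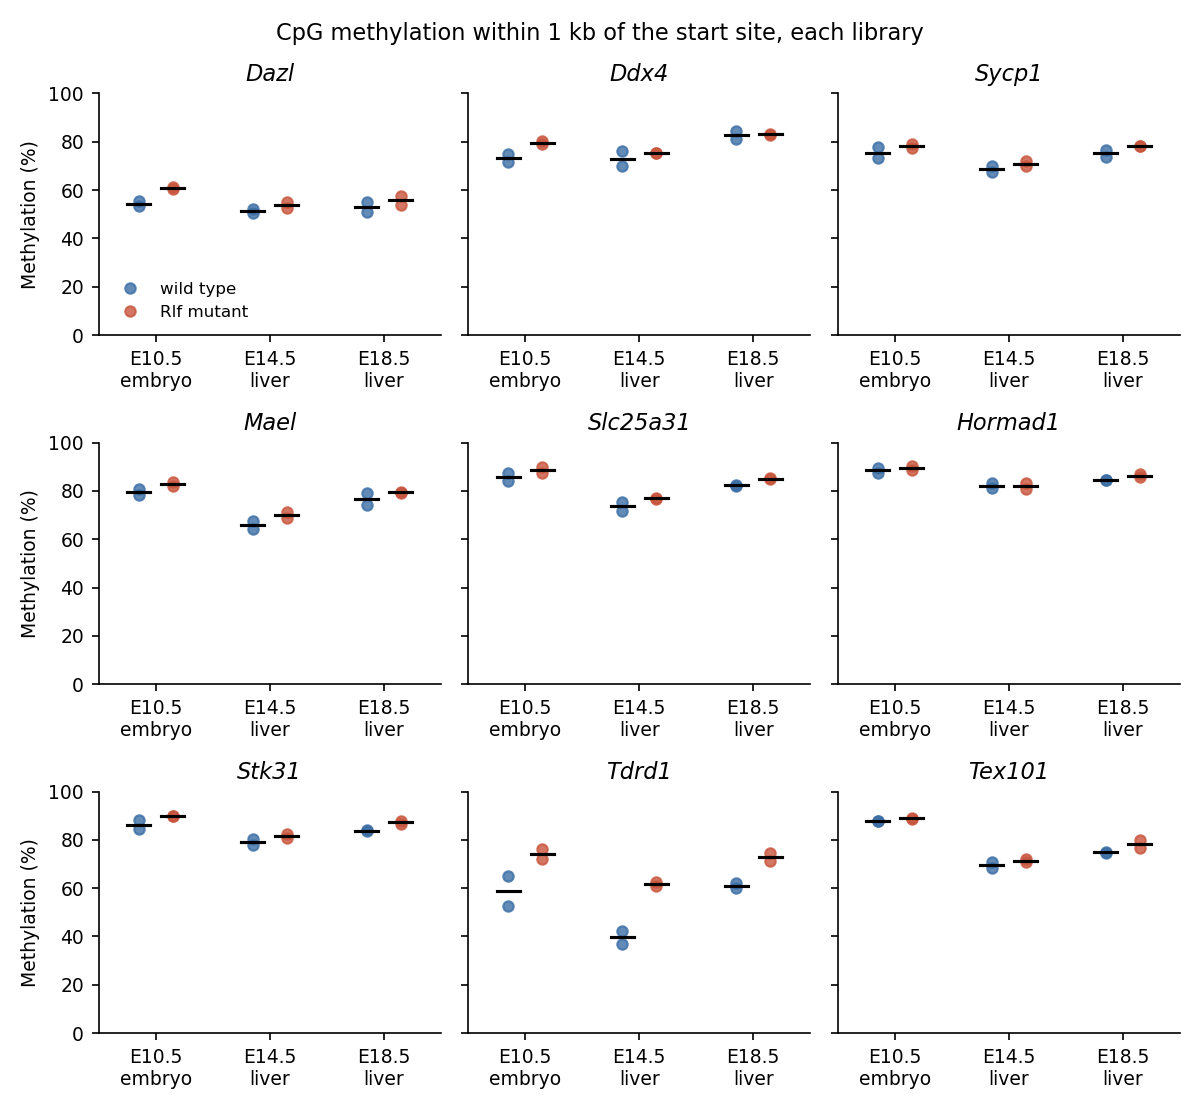
CpG methylation within 1 kb of the start site (percent, y axis) of each gene in each WGBS library, by tissue (x axis), with wild types in blue, Rlf mutants in red and bars at the mean of 2 libraries. All values but those of Dazl and Tdrd1 lie above 64%, and the Tdrd1 mutants lie above the Tdrd1 wild types in each tissue.

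The low mean of Dazl joined a methylated and an unmethylated stretch that met inside the window. In the 1 kb before the start (chr17:50432925-50433924), 44 CpGs were methylated at 90.4% to 95.5% in every library. Between 250 and 499 bases after the start the level was 46.3% to 67.2%. From 500 to 1000 bases after the start (chr17:50431924-50432424), within the first intron of the longer transcript, 53 CpGs were methylated at 0.435% to 6.46%. A second annotated start of Dazl, at chr17 position 50432217 and 707 bases downstream of the first, lies in this unmethylated stretch. The boundary stood at the same place in all 6 groups.

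Tdrd1 had the opposite shape. In wild types its methylation dipped around the start, with 46.0%, 36.7% and 49.6% in the 250 bases before it at E10.5, E14.5 and E18.5, and higher levels further out on both sides. Between 2 and 5 kb from the Tdrd1 start the 2 sides differed. Upstream, 121 CpGs stood at 10.6% to 13.5% by tissue means, and the unmethylated ones among them lay around the start of a neighbouring gene on the other strand, A630007B06Rik, 4019 bases upstream. Downstream, 50 CpGs stood at 72.9% to 88.2%. In the other 8 genes the CpGs 2 to 5 kb away, pooled over both sides, stood at 59.7% to 89.2%.

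**Figure D3:**
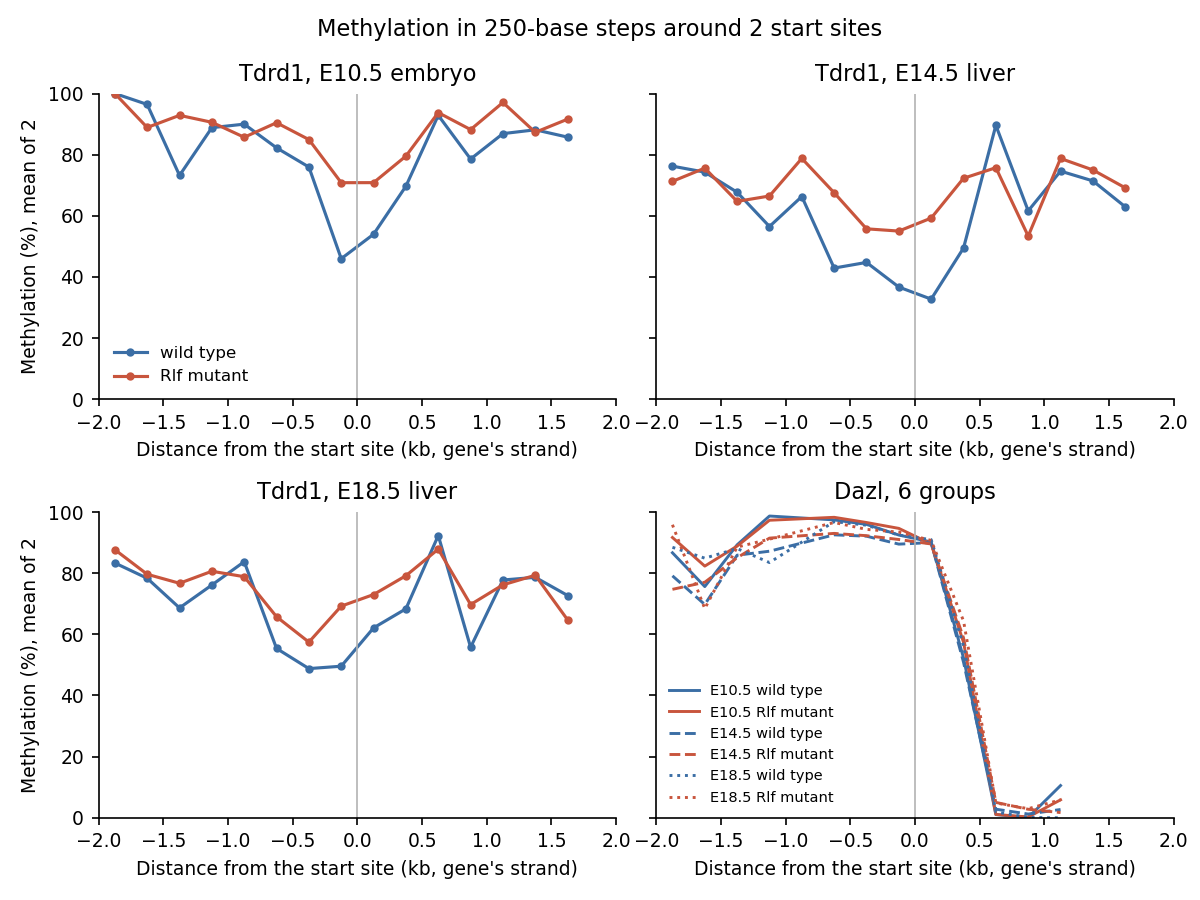
Methylation (percent, mean of 2 libraries) in steps of 250 bases against the distance from the start site in kb, for Tdrd1 in each tissue with wild types in blue and Rlf mutants in red, and for Dazl in all 6 groups. The mutant line of Tdrd1 lies above the wild-type line across the dip. The 6 Dazl lines fall together from about 90% at the start and lie under 7% from 500 to 1000 bases after it.

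Most of the promoters were less methylated in E14.5 liver than in the E10.5 embryo. Averaged over the genotypes, 7 of 9 genes were lower in E14.5 liver (edgeR quasi-likelihood test on methylated and unmethylated reads, Benjamini-Hochberg adjusted p under 0.05 over all promoters), and the background was large, since 42.0% of all promoters were called lower. The median of the 9 genes was -7.80 points, beside -0.36 over all promoters and -12.8 over the methylated comparison promoters.

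Tex101 showed the clearest drop. Its 4 E10.5 libraries stood at 87.8%, 87.6%, 88.5% and 89.2% (2 wild types, then 2 mutants), and its 4 E14.5 libraries at 68.2%, 71.0%, 70.8% and 71.9%. The groups were far apart and the difference was -17.8 points (adjusted p = 2.81e-07). Tdrd1 fell by 15.9 points (adjusted p = 0.000274), but its libraries of the 2 tissues overlapped, since the mutants at E14.5 stood above a wild type at E10.5. The differences of Mael and Slc25a31 were -13.3 and -11.8 points (adjusted p = 2.32e-05 and 1.24e-05). The differences of Stk31, Sycp1 and Hormad1 were -7.80, -7.08 and -6.83 points (adjusted p = 0.000135, 0.00428 and 0.000227). Dazl (-4.91 points, adjusted p = 0.0731) and Ddx4 (-2.32 points, adjusted p = 0.265) did not pass. In 6 genes, the called ones without Tdrd1, all 4 E14.5 libraries lay under all 4 E10.5 libraries, which 38.2% of all promoters and 79.4% of the methylated comparison promoters did. Between males alone, all 9 differences were below 0, with a median of -8.92 points. The 7 calls became 2 when the window was cut to 250 bases before to 50 after the start. Over all promoters the calls in either direction fell too, from 12055 of 18905 to 3021 of 14026.

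The flanks of the promoters showed a larger difference than the promoters in 8 genes, all but Tdrd1. Between 2 and 5 kb from the start, the mean over genotypes differed by -12.8 (Sycp1) to -24.6 points (Mael) at E14.5 in all genes but Tdrd1. These flanks rest on few CpGs, 11 (Stk31) to 55 (Tex101) on both sides together, and on 1 CpG downstream in Sycp1 and in Stk31. For Dazl the difference was -23.2 points in the flanks and -4.91 in the promoter window. For Ddx4 it was -15.7 and -2.32 points. For Tdrd1 the difference was -15.3 points in the downstream flank, beside -15.9 in the window, and -2.68 points in the upstream flank with the unmethylated CpGs of the neighbouring gene. Only the promoter windows were tested.

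Most of the promoters were more methylated in E18.5 than in E14.5 liver. The differences were +1.83 (Dazl) to +16.3 points (Tdrd1), with a median of +6.99 beside -0.01 over all promoters and +5.08 over the methylated comparison promoters, and 7 of 9 were called, with 9.64% of all promoters called higher. For Ddx4 the 4 E14.5 libraries stood at 70.0%, 76.0%, 75.4% and 75.3% and the 4 E18.5 libraries at 84.4%, 81.3%, 83.3% and 82.9%. The difference was +8.78 points (adjusted p = 0.0137), so that Ddx4, alone of the 9, stood highest in E18.5 liver beyond the range of both other tissues. Mael (+10.05 points), Slc25a31 (+8.36), Sycp1 (+6.99), Tex101 (+6.08), Stk31 (+5.21) and Tdrd1 (+16.3) were the other genes called. In 7 genes, all but Dazl and Tdrd1, the 4 E14.5 libraries lay under the 4 E18.5 libraries, which 13.7% of all promoters and 50.2% of the methylated comparison promoters did. Between females alone, all 9 differences were above 0, with a median of +7.30 points.

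These E18.5 calls were close to the threshold, with adjusted p between 0.0109 and 0.0334. None of the 9 was called with the wild types alone, with the mutants alone or in a window of 500 bases on each side, although the directions were kept. Over all promoters the calls in either direction fell as well. They were 2803 of 18905 in the main fit, 29 with the wild types alone, 18 with the mutants alone and 136 of 17110 in that window. They also fell in most fits that left out 1 liver library. Leaving out 1 E10.5 library kept 7 calls. Leaving out 1 liver library gave 3 to 6: 3 without E14.5 wild-type replicate 1, 4 without E14.5 mutant replicate 1, either E18.5 wild type or E18.5 mutant replicate 1, 5 without E14.5 mutant replicate 2, and 6 without E14.5 wild-type replicate 2 or E18.5 mutant replicate 2. Sycp1 lost its call in all 8 of these fits, Tex101 in 6, Stk31 in 5 and Ddx4 in 1, while Mael, Slc25a31 and Tdrd1 were called in each of the 12. The E14.5 livers were also sequenced more deeply, with 31.4 to 35.4 reads per covered CpG against 16.8 to 19.0 in the other tissues. The cell make-up of the liver also differs between these stages, as given above. The parts of depth and of cell make-up in the differences were not tested.

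The loss of Rlf was accompanied by higher methylation of Tdrd1, and Tdrd1 was the only gene of the 9 to pass the test. At E14.5 the 2 wild-type livers stood at 37.0% and 42.5% and the 2 mutant livers at 60.8% and 62.3%. At E10.5 the wild-type embryos stood at 52.5% and 65.2% and the mutants at 76.1% and 72.2%. At E18.5 the wild types stood at 62.1% and 59.9% and the mutants at 74.7% and 71.2%. The mutants lay above the wild types in each tissue, and the gap was widest at E14.5.

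The group means of Tdrd1 were 39.7% ± 3.89 (SD, n = 2) and 61.6% ± 1.10 at E14.5, 58.9% ± 8.93 and 74.2% ± 2.76 at E10.5, and 61.0% ± 1.52 and 73.0% ± 2.47 at E18.5, each wild type first. The differences were +21.8, +15.3 and +11.99 points. None of these passed in its own tissue (edgeR quasi-likelihood test, adjusted p = 0.0719, 0.0932 and 0.316), where 0.148%, 0.704% and 0.164% of all promoters were called higher. This fit left out the replicate number, and the calls with that number as a block, which were more, are given at the end. Averaged over the 3 tissues, the mutants were higher by 16.4 points (adjusted p = 0.00162), and Tdrd1 was 1 of 941 promoters (4.98%) called higher in this contrast. Without E10.5 wild-type replicate 1 the E10.5 difference was +8.99 points (adjusted p = 0.535). The average over tissues was called in all 12 fits that left out 1 library, with +14.3 to +18.49 points. Among the other settings run it lost its call only in the window of 250 bases before to 50 after the start (+20.5 points, adjusted p = 0.0685).

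Most single CpGs of Tdrd1 showed the gain. Of its 60 CpGs, 53, 58 and 55 had a higher mean in the mutants at E10.5, E14.5 and E18.5, and 49 did in all 3 tissues. Both mutants stood above both wild types at 40, 54 and 36 CpGs. In the other 8 genes, CpGs with a higher mutant mean in all 3 tissues were, by share, from 10 of 55 (Hormad1) to 16 of 43 (Tex101). Neighbouring CpGs share reads and are not independent. The gain spanned the dip of the wild-type profile: over the 51 CpGs from 250 bases before to 499 after the start (chr19:56900449-56901198), the mutants were higher by 16.4, 23.3 and 12.7 points at E10.5, E14.5 and E18.5. It was not confined to the dip at E14.5. Over the 7 CpGs from 1000 to 251 bases before the start the differences were +3.28, +17.2 and +6.23 points. Over the 2 CpGs from 500 to 1000 bases after it they were +3.95, -13.1 and +1.78 points. In the CpGs 2 to 5 kb downstream the mean difference over the tissues was +2.44 points.

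The other 8 genes stood +0.79 (Hormad1) to +3.87 points (Dazl) higher in the mutants on average over the tissues, and none was called (adjusted p = 0.0949 for Stk31 to 0.671 for Hormad1). The median of all 9 was +3.04 points, and +3.02 without Tdrd1. The methylated comparison promoters as a whole had a median of +2.20 points with quartiles of +0.99 and +4.04, and all promoters one of +0.38. All of the 8 but Hormad1 lay between these quartiles, while the Tdrd1 value exceeded 97.7% of the methylated comparison promoters and 99.9% of all promoters.

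Both mutants stood above both wild types for 7 of the 9 genes at E10.5 (35.4% of all promoters and 59.1% of the methylated comparison promoters), 6 at E14.5 (36.8% and 52.9%) and 6 at E18.5 (28.3% and 49.8%). Slc25a31, Stk31 and Tdrd1 did so in all 3 tissues, as did 8.08% of all promoters and 25.7% of the methylated comparison promoters. For Stk31 the wild types stood at 88.2% and 84.4% at E10.5, 77.7% and 80.3% at E14.5 and 83.6% and 84.0% at E18.5, and the mutants at 89.9% and 89.8%, 80.7% and 82.5%, and 88.0% and 86.4%. Its mean difference of +3.17 points was called when chromosome X was left out of the fit, an alternative added after seeing the data (adjusted p = 0.0472). With the same change Tdrd1 was called at E10.5 and at E14.5 (adjusted p = 0.00554 and 0.00043). Calls over all promoters also rose with this change, to 1649 of 18286 on average, 470 at E10.5 and 270 at E14.5. The Stk31 difference exceeded 66.1% of the methylated comparison promoters.

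**Figure D4:**
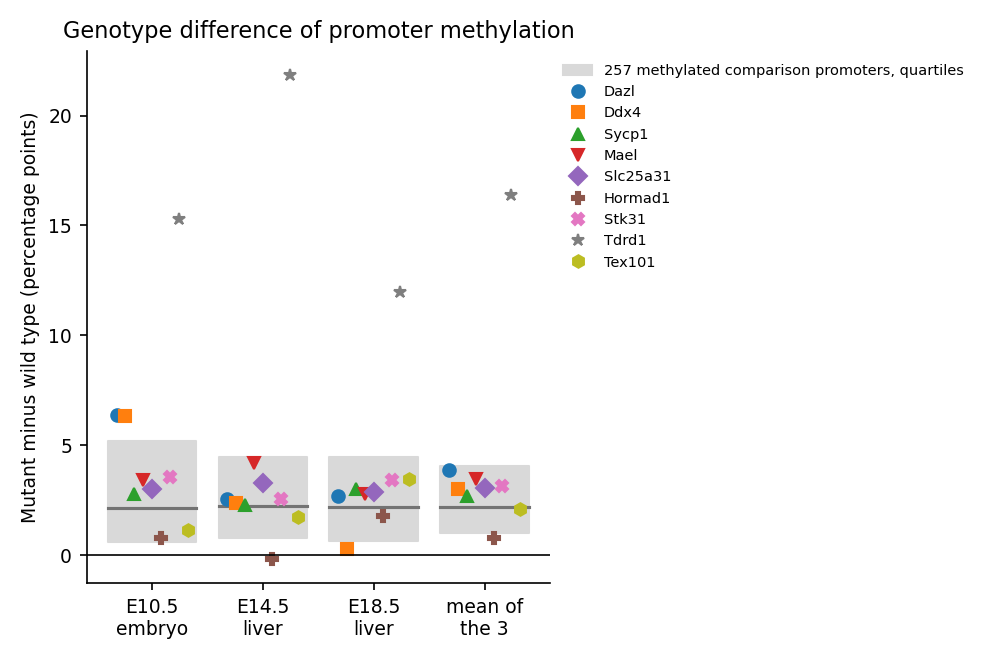
Mutant minus wild-type methylation (percentage points, y axis) of the 9 genes in each tissue and on average, over the quartiles (grey) and median (line) of the 257 methylated comparison promoters. Tdrd1 stands at +15.3, +21.8, +11.99 and +16.4 points, apart from the other genes, most of which lie within the grey band.

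Whether the genotype difference itself changed between tissues was tested as an interaction. For Tdrd1 the genotype difference at E14.5 exceeded that at E10.5 by 6.54 points, and that at E18.5 minus that at E14.5 was -9.86 points. No gene of the 9 was called, and 0 of 18905 promoters were called in either interaction. An unadjusted p under 0.05 was reached by 768 and 573, fewer than would be reached if no promoter had an interaction. No other tool was run on the methylation counts.

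In the E14.5 livers the mRNAs of the 9 genes were rare or undetected. The 6 libraries held 12928313 to 14621004 counts, so that 3 counts correspond to 0.205 to 0.232 CPM (counts scaled to the library total), the limit that a count of 0 allows, for counting error only. Hormad1 had no count in any library. Stk31 had 1 count, in mutant replicate 3, Tex101 had 1, in wild-type replicate 1, and Mael had 3, all in wild-type replicate 3. A long antisense gene model, Gm17060, overlaps Stk31, and counting ignored strand.

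Sycp1, a transverse filament protein of the synaptonemal complex, was the best detected. Its wild-type livers had 32, 45 and 67 counts and its mutant livers 14, 21 and 14. The groups did not overlap. Means were 3.38 CPM ± 1.17 (SD, n = 3) in wild types and 1.19 CPM ± 0.28 in mutants, a log2 fold change of -1.49 with a standard error of 0.30 (edgeR quasi-likelihood test, adjusted p = 0.0344), where 0.691% of the 14183 genes tested were called lower. Sycp1 was called with DESeq2 (adjusted p = 0.0102), with sex as a covariate and with the replicate number as a block, but not in 4 of the 6 fits that left out 1 library: without wild-type replicate 3 (log2 -1.18, adjusted p = 0.0985) or without mutant replicate 1, 2 or 3 (adjusted p = 0.145, 0.0552 and 0.123).

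Tdrd1 had 2, 7 and 3 counts in the wild types and 0, 0 and 0 in the mutants. This is at least 3.88-fold lower in the mutants, taking 3 counts over the 3 mutant libraries as the limit and the wild-type counts as exact. With counting error in both groups, the 95% exact interval of the ratio reaches up to 0.371. Slc25a31 had 10, 9 and 6 counts in the wild types and 0, 2 and 0 in the mutants, a ratio of 0.0825 with a 95% exact interval of 0.00947 to 0.331 that covers counting error only. Dazl had 2, 5 and 3 counts against 0, 2 and 0 (ratio 0.206, interval 0.0220 to 0.967). Ddx4 overlapped, with 11, 4 and 5 counts against 5, 3 and 1 (ratio 0.464, interval 0.186 to 1.07). These 4 genes were under the filter on low counts. When every gene with 1 count was tested, Slc25a31 passed (adjusted p = 0.0199) and Tdrd1 did not (adjusted p = 0.0666).

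Thus 4 of the 8 genes with any count (Dazl, Sycp1, Slc25a31 and Tdrd1) had all 3 mutants under all 3 wild types in CPM, and none had the reverse. Among all 21942 genes with a count, 8.02% had the mutants lower, and among the 4232 genes with 5 to 50 counts in total 4.89% did, with 7.37% the other way. For Dazl the closest libraries both had 2 counts and parted only by their totals. Summed over the 9 genes, the wild-type livers held 4.32 to 6.07 CPM and the mutant livers 1.12 to 2.01 CPM. Most of these sums was Sycp1, with means of 3.38 CPM in wild types and 1.19 CPM in mutants.

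**Figure D5:**
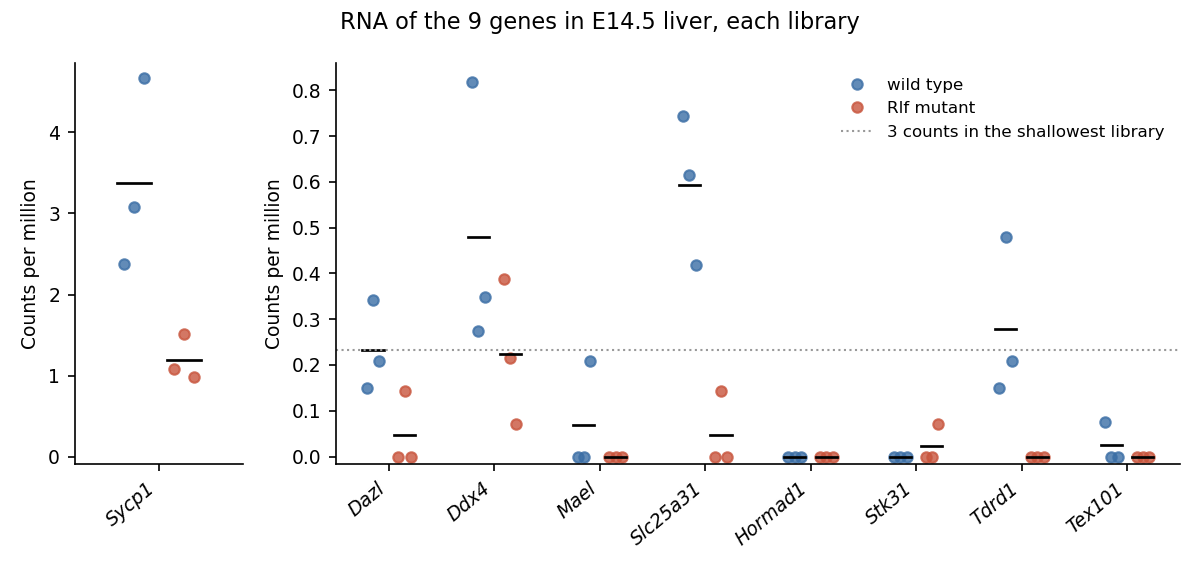
CPM of the 9 genes in each of the 6 E14.5 liver RNA-seq libraries, wild types in blue, Rlf mutants in red, bars at the mean of 3 libraries, with Sycp1 on its own axis and a dotted line at 3 counts in the shallowest library. The mutants lie under the wild types for Sycp1, Dazl, Slc25a31 and Tdrd1.

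The libraries carried the marks of fetal liver. All 9 erythroid and all 8 hepatoblast markers were expressed, with erythroid sums of 27307 to 50174 CPM in wild types and 33461 to 36696 in mutants, and hepatoblast sums of 56015 to 64465 and 66611 to 77329. The mean CPM was lower in the mutants for all 9 erythroid markers, and the hepatoblast sums of the genotypes did not overlap, mutants being higher. Alb and Afp made up most of the hepatoblast sums. Of the 8 hepatoblast markers only Krt8 had a lower mean in the mutants (log2 -0.04), and Ttr and Apoa1 differed little (log2 +0.03 and +0.06). No erythroid marker was called and 1 hepatoblast marker was (Trf, transferrin, log2 +0.46, adjusted p = 0.0289). Of the primordial germ cell markers, Pou5f1 and Dppa5a had no count, Nanog and Dppa3 had 1 each, and those tested (Prdm1, Dnd1 and Kit, which blood cells also express) were not called. Prdm14 (5, 5 and 3 counts in wild types, 2, 6 and 6 in mutants) and Nanos3 (2, 2 and 3 in each genotype) were detected in all 6 libraries but were under the filter on low counts. The 9 germ cell marker genes found summed to 50.9 to 65.5 CPM in wild types and 52.0 to 64.4 in mutants, nearly all of it Kit. Of 6 markers of gonad support cells, Nr5a1 had 1 count and 3 were tested, and Sox9, which hepatobiliary cells also express, was called higher in the mutants (27, 19 and 20 counts against 51, 49 and 68). The gonad list summed to 4.72 to 5.23 CPM in wild types and 6.75 to 8.62 in mutants. Most of this difference was Sox9, with means of 1.57 and 4.08 CPM, while Inha (1.26 and 1.36) and Star (1.92 and 2.13) differed little. The part of the gonad list in the RNA results, like that of the other marker lists, was not tested. The transcript of Rlf itself did not differ (918, 1094 and 982 counts against 983, 1106 and 963, log2 +0.08, adjusted p = 0.646), and a point mutation need not change its level, so this does not check the genotype.

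Of 21 genes known to repress or methylate such promoters, 20 were tested and 1 was called. Dnmt3a, a de novo DNA methyltransferase, had 1327, 1641 and 1644 counts in wild types and 1751, 1930 and 1868 in mutants (log2 +0.32, standard error 0.06, adjusted p = 0.0319), with 0.698% of the 14183 genes tested called higher. The call was lost in 5 of the 6 fits that left out 1 library and stayed without wild-type replicate 2. Dnmt3l, the cofactor of de novo methylation, had no count. Mga, Max and E2f6, named for their place in PRC1.6 and outside the naming rule, with values already seen, stood at 83.0, 92.3 and 62.5 CPM on average and were not called (log2 +0.08, -0.03 and -0.03). The most abundant regulators were Trim28, Dnmt1, Uhrf1, Kdm5c and Hells, at 409 to 147 CPM, and the least abundant beside Dnmt3l were Ring1, Cbx3, Dnmt3b and Pcgf6, at 17.7 to 27.7 CPM. None of these was called.

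A wider list of 50 germline genes, none of them among the 9, showed how far the pattern extends. 48 were tested for methylation (Tdrd5 and Tex15 were not), 35 stood above 50% and 8 under 20%. The most methylated were Dpep3 (89.1%), Spo11 (89.0%), Rpl10l (87.1%), Hsf2bp (85.1%) and Brdt (84.9%). The least methylated were Ddx25 (3.63%), Cpeb1 (3.82%), Prdm9 (5.47%), Tdrkh (7.56%) and Syce2 (11.4%). From E10.5 embryo to E14.5 liver 39 of the 48 were called lower and 2 higher, where 42.0% of all promoters and 224 of the 257 methylated comparison promoters were called lower. From E14.5 to E18.5 liver 19 were called higher and 1 lower, where 9.64% of all promoters and 115 of the 257 were called higher.

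Between genotypes, 10 of the 48 were called higher in the mutants on average over the tissues and 0 lower, where 4.98% of all promoters were called higher. Of the 257 methylated comparison promoters, 44 were called higher. Hormad2, a paralogue of Hormad1, gained 14.6 points (adjusted p = 0.00924), the pluripotency and germ cell gene Dppa3 14.02 points (adjusted p = 9.2e-05), the oocyte transcription factor gene Nobox 10.54 points (adjusted p = 0.00383) and Sycp3, a component of the synaptonemal complex, 10.3 points (adjusted p = 0.00048). Boll, of the Dazl family, Dmc1, the meiotic recombinase, Tdrd6, Smc1b, Piwil4 and Cpeb1 gained 9.14, 8.30, 6.92, 6.51, 5.36 and 2.65 points. Of these 10 genes only Sycp3 was among the 257, so the 2 sets are not alike. Many other genes of the list were among the 257, such as Rec8, Sycp2, Syce1, Tex12 and Dpep3, and none of those was called. The 10 calls thus show no excess over promoters of like CpG number and level. Cpeb1, Tdrd6, Boll, Dmc1 and Smc1b had mean levels of 3.82% to 36.0%. Hormad2, Dppa3, Nobox and Piwil4 held 25 to 41 CpGs, under the minimum of 43. The median over the 48 was +2.14 points. Dppa3 and Sycp3 were also called at E10.5, and Dppa3 and Cpeb1 at E14.5.

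In RNA, 8 genes of the wider list were tested and Rnf17, a Tudor domain gene, was called lower in the mutants, with 47, 60 and 61 counts against 14, 17 and 29 (log2 -1.43, adjusted p = 0.0145). It lost its call without wild-type replicate 3 or without mutant replicate 1 or 2 (adjusted p up to 0.0847), and its promoter, at 72.2%, was not called between genotypes. Syce2, Stag3, Prdm9, Tdrkh, Pld6, Brdt and Ddx25 were not called. Among the 38 genes of the list with a count, 7 had all mutants under all wild types and none the reverse, beside the 8.02% of all genes given above. Tex11 had 14, 6 and 11 counts against 0, 0 and 0, at least 10.03-fold lower in the mutants by the same limit (ratio up to 0.130 with counting error in both groups), and Hormad2 had 14, 19 and 9 against 2, 0 and 2. The choice of Tex11 and Hormad2 was made after looking at their counts. Hormad2 was also among the promoters that gained methylation.

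Finally, the 12064 other promoters with at least 43 CpGs were compared with the median of the 9 genes in each of the 12 libraries. The closest in root mean square difference were Gm16686 (2.02 points), Psmb11 (2.47), the meiotic gene Tex12 (2.504), Pramel1 (2.59) and Foxs1 (2.61), with mean levels of 75.3% to 79.2%. None of these 5 was called between genotypes.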

How the data were processed

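The 9 genes, the gene lists and the tests were chosen with earlier results of these data known. For WGBS the authors aligned reads to mm9 carrying FVB substitutions with Bismark and Bowtie2, removed duplicates, merged strands and deposited methylated and unmethylated read counts per CpG. Spiked lambda DNA read as 0.0412% to 0.0775% unconverted. For RNA-seq the authors aligned unstranded reads with Tophat and deposited raw htseq-count counts per Ensembl gene (37205 of 37991 IDs had a symbol). H3K4me1 ChIP samples were not analysed here.

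Starts came from GENCODE vM1, using the transcript with the longest coding sequence. RefSeq starts lay 0 to 65 bases away. Within 1000 bases of the start, reads were summed over CpGs covered at least 6 times in each library, and promoters with at least 8 such CpGs were tested in edgeR 4.0.16 (R 4.3.3): quasi-likelihood fit, 1 intercept per library, 6 groups, Benjamini-Hochberg adjustment over all promoters. RNA used edgeR with TMM and filterByExpr, and DESeq2 1.42.0 as an alternative. Both fits were also run on simulated counts, for methylation before the real counts and for RNA after them. The study calls the replicates of both assays biological, and the E14.5 WGBS livers came from littermates.

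Same-numbered RNA libraries deviated together (r = 0.14, 0.22 and 0.42 over genes), so the replicate block was fitted as a paired alternative. It called 460 genes against 197 without the block. Replicate libraries differed beyond sampling noise (mean squared z of 2.63 to 17.7, 1 being noise alone). Named genes were the 9, Rlf, in the other lists each gene called between genotypes and the 5 highest and 5 lowest, and the 5 promoters nearest the median profile. Named outside this rule, after their values were known, were Mga, Max, E2f6, Tex11, Hormad2 in RNA, the other tested genes of the wider list and the marker genes.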

Additional observations from a re-analysis of the deposited data

How the results depend on the processing

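In methylation, same-numbered wild-type and mutant libraries correlated in their deviations at r = 0.07, 0.51 and -0.03 at E10.5, E14.5 and E18.5, not all above 0.1, so the numbers were not taken to pair the libraries, and at E14.5 the number also parts the sexes. With the replicate block, genes called between genotypes were 1 (Tdrd1) at E10.5, 1 at E14.5, 1 at E18.5 and 2 on average (Tdrd1 and Stk31), against 0, 0, 0 and 1, and no other count of the 9 genes' calls moved. With autosomes only, added after the data were seen as were the RefSeq start and the comparisons within 1 sex, they were 1, 1, 0 and 2. In the window of 250 bases before to 50 after the start, 0 were called on average, 2 from E10.5 to E14.5 (median -11.5 points) and 0 from E14.5 to E18.5. Over all 14026 promoters of that window, 3021 and 9 were called in these tissue contrasts, against 12055 and 2803 of 18905 in the main fit. In the window of 500 bases on each side, 0 were called from E14.5 to E18.5 (median +8.75 points), as with the wild types alone (0) and the mutants alone (0). Over all promoters these settings called 136, 29 and 18 from E14.5 to E18.5. Requiring a difference above 15 points left 2 calls from E10.5 to E14.5 and 1 from E14.5 to E18.5.

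Over all promoters, calls between genotypes at E10.5, E14.5, E18.5 and on average were 133, 28, 31 and 964, against 470, 270, 157 and 1649 on autosomes only, 684, 379, 218 and 1896 with the block, 12, 5, 7 and 427 in the 500-base window, and 1, 1, 0 and 72 in the shortest window. Leaving out 1 library took them as low as 2, 3, 0 and 480, and fits of E10.5, E14.5 or E18.5 alone gave 190, 0 and 90, so the shares called among all promoters move as well.

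Leaving out 1 library gave 0 to 1 call at E10.5, 0 to 1 at E14.5, 0 at E18.5, 1 on average, 7 from E10.5 to E14.5 and 3 to 7 from E14.5 to E18.5, and 0 in both interactions. The gene called was Tdrd1, at E10.5 without E10.5 wild-type replicate 2 (adjusted p = 0.0447) and at E14.5 without either E10.5 wild type (adjusted p = 0.0406 and 0.0407). The medians ran from +2.24 to +4.67, +1.62 to +3.17, +2.81 to +3.56, +2.91 to +3.51, -8.74 to -7.59 and +6.29 to +7.69 points in the same order. The genotype difference of Hormad1 at E14.5, -0.18 points, was +0.21 in the 500-base window and +0.36 with each CpG weighted equally. That of Ddx4 at E18.5, +0.27, was -0.082 with a minimum of 10 reads, -0.47 in the 500-base window and -1.11 in the shortest window. Without 1 library, Hormad1 ran from -0.31 to +1.83 at E10.5 and -1.40 to +1.04 at E14.5, and Ddx4 from -0.66 to +5.39 at E14.5 and -1.25 to +1.80 at E18.5. On the wider list, a minimum of 10 reads called 1 gene at E18.5 against 0.

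Over all genes in RNA, 197 were called, against 460 with the block, 532 with no filter and 66 to 224 without 1 library. In RNA, 2 of the 9 genes were called with no filter and 1 otherwise, 0 to 1 without 1 library, with 0 to 1 regulators. The replicate block changed neither count. The causes of these changes were not tested. With 2 libraries a group the smallest differences between genotypes could not be resolved, and the RNA of all 9 genes but Sycp1 is limited by the low counts.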
